A study of Homo sapiens with 4 samples.

Results

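Homeobox transcription factor genes were followed after knockdown of JARID2 in MDA-MB-231, a human cell line established from a breast cancer. They were chosen by gene symbol alone: the HOX clusters A to D, the sine oculis homeobox family (SIX2, SIX4 and relatives) and the PAX, LHX, DLX, MSX, IRX, MEIS, PBX, NKX, EMX, OTX, PITX, ALX, BARX, GBX, VAX, CDX and EN families. This gave 103 members among 25133 rows with a gene symbol, with no filter on expression. Gene expression was measured by RNA sequencing of 4 libraries. The 2 shJARID2 libraries came from cells infected with a short hairpin RNA against JARID2, and the 2 shSCR libraries from cells infected with the shSCR hairpin RNA; their genotypes are labelled JARID2 knockdown and WT. All groups share the cell line, its culture medium with serum, and infection with Polybrene. Nothing in the labels ties a library to its own culture or gives the number of hairpins, so a p-value speaks only of the spread among the 4 libraries. In such bulk RNA, fewer cells expressing a gene and less of its RNA per cell cannot be told apart.

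Homeobox genes encode DNA-binding proteins that fix the identity of body regions, organs and cell types during development. HOX genes lie in 4 clusters, A to D, in the order in which they act along the body axis, and their proteins bind DNA with partners of the TALE class (PBX and MEIS). Polycomb repressive complex 2 (PRC2) methylates histone H3 at lysine 27, and developmental regulators with CpG-rich promoters, homeobox genes foremost, are its textbook targets. JARID2 belongs to the accessory subunits of PRC2 and can bind DNA. Histone marks and PRC2 binding were not measured here. Not every member holds a full homeodomain: PAX2, PAX5 and PAX8 carry part of it and PAX9 none, and MEIS3P1, MEIS3P2 and PBX2P1 are annotated processed pseudogenes.

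The deposited values are FPKM, a unit that divides a gene's fragments by its length and by the library's size, so levels can be compared between genes per length. Steps between low values put the depth at about 12900000 and 12800000 counted reads in shJARID2 replicates 1 and 2, against 15500000 and 16200000 in shSCR replicates 1 and 2. At the median exon length of the members, 3001 bases, 0.1 FPKM stands for 3.8 reads in the shallowest library and 4.9 in the deepest. JARID2 itself, on chromosome 6, was at 3.88 and 3.91 FPKM in shJARID2 libraries, against 10.8 and 10.8 FPKM in shSCR libraries (log2 fold change -1.27, limma adjusted p = 0.0014). Of the markers of the line, CD44, AXL, CAV1 and MSN lay between 68.9 and 417 FPKM. VIM, the intermediate filament gene that defines its mesenchymal state, was only at 2.10 and 2.77 FPKM in shJARID2 and 3.54 and 4.20 FPKM in shSCR, with 24.4% of its exon bases lying in other genes too. A low value is reported here as a low deposited value. The luminal and epithelial genes ESR1, PGR, GATA3 and CDH1, the blood gene PTPRC and the fibroblast gene COL1A1 stayed below 1 FPKM in every library, and KRT18 was between 6.55 and 14.2 FPKM.

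Most homeobox genes were silent or low. Silent means below 0.1 FPKM in all 4 libraries, expressed means 1 FPKM or more on average, and low covers the rest. Of the 103 members, 49 (47.6%) were silent, 38 (36.9%) low and 16 (15.5%) expressed. Over all 18089 protein-coding rows these shares were 19.1%, 23.2% and 57.7%. None of the 29 HOX genes was expressed: 15 were silent and 14 low. The TALE families had 8 expressed members of 16. The pseudogenes MEIS3P1 (expressed), MEIS3P2 (low) and PBX2P1 (silent) are counted among these, whereas the shares set beside the members cover protein-coding rows only. Expressed genes numbered 4 of 6 in the sine oculis family and 2 of 7 in the paired-like families (OTX, PITX and ALX). The LIM (LHX) and PAX families had 1 of 8 each. The other families, NKX, DLX, EMX, EN, GBX, VAX, BARX, MSX and CDX, had no expressed member among 29, with 13 low and 16 silent.

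Regulators of several other organs were silent. The silent set includes 7 of 8 PAX genes, among them PAX6 of the eye and PAX3 and PAX7 of neural crest and muscle. It also includes 4 of 6 Iroquois genes (IRX1, IRX2, IRX4 and IRX6), 7 of 12 NKX genes, among them NKX2-1 of lung and thyroid and NKX2-5 of the heart, and LHX2, whose product acts in forebrain and hair follicle. HOXA9, GBX2, LHX5 and ALX1 were listed at 0 in all 4 libraries. A count of 0 allows up to 3 reads, or at most 0.077, 0.101, 0.075 and 0.162 FPKM per library for these genes, counting error only. Summed over the 49 silent members, FPKM came to 0.882 and 1.30 in shJARID2 replicates 1 and 2 and to 0.403 and 0.690 in shSCR replicates 1 and 2. This rests on 55 and 70 reads in shJARID2, against 19 and 43 in shSCR. Over all 3460 silent protein-coding rows the sums were 81.3 and 94.9 FPKM in shJARID2, against 40.6 and 65.2 FPKM in shSCR, so silent genes at large also had more FPKM in both knockdown libraries. Their part in the result for the members was not tested.

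HOX genes with a measurable level sat in the HOXB, HOXC and HOXD clusters. GENCODE release 29 annotates 39 HOX genes, and the 10 with no row under their symbol were not analysed here. Within HOXB the highest means belonged to HOXB3, HOXB4, HOXB7 and HOXB9, within HOXC to HOXC6 and HOXC8, and within HOXD to HOXD1 and HOXD4. HOXA3 and HOXA9 were silent and HOXA13 averaged 0.0867 FPKM over the 4 libraries. Of the genes of paralogue numbers 10 to 13 that had a row, HOXA13 and HOXD12 were low and the others silent. HOXD12 was low only through 3 reads in shSCR replicate 2. Exons of other genes cover at least 10% of the exon bases of 11 of the 28 HOX genes with an annotation match, up to 80.5% in HOXD4, against 11 of 74 other members. Whether counting used strand is not given, so the values of such genes are uncertain.

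**Figure D1:**
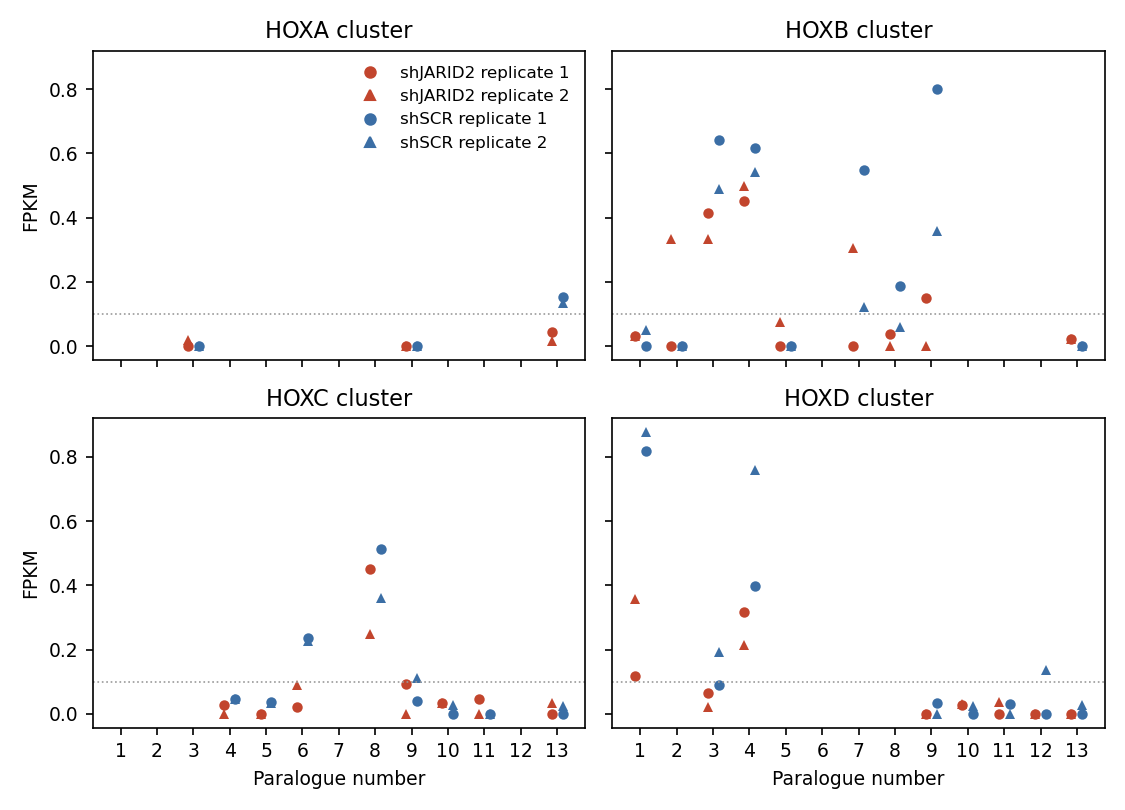
FPKM (linear axis) of 28 of the 29 HOX genes by paralogue number in the 4 clusters, with 1 point per library (shJARID2 left and shSCR right of each number) and a dotted line at 0.1 FPKM. All points lie below 1 FPKM, and the genes drawn with a mean of at least 0.1 FPKM are HOXB3, HOXB4, HOXB7, HOXB9, HOXC6, HOXC8, HOXD1 and HOXD4. HOXB2 has a single point above the line, at 0.334 FPKM in shJARID2 replicate 2.

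The low members were fitted with a lower filter (limma on log2(FPKM + 0.1), all rows with a mean of at least 0.1 FPKM), and 27 of the 38 low members entered it. 1 of these 27 fell in shJARID2 (3.7%), and none rose, at a Benjamini-Hochberg adjusted p below 0.05. Among all 5293 rows with a mean of 0.1 to 1 FPKM, 7.78% were called lower and 2.59% higher (10.4% in all), so the members' counts were near the background. As a description, in 17 of 27 (63.0%) both shJARID2 libraries lay below both shSCR libraries, in none above, and in 10 the groups overlapped. Over all rows of this range the same held for 31.6% below and 17.3% above. The median log2 fold change was -0.54 for the 27 members and -0.19 for all rows of the range, and 25 of the 27 values were negative. After removal of a trend on transcript GC content, described below, 14 of the 27 were negative, with a median of -0.1 against -0.02 for all rows, and 1 member was called higher and 1 lower. The median GC content was 56.5% for the 27 members and 49.5% for all rows of the range. HOXB9, EN2, SIX3 and HOXC6 reached a mean of 0.1 FPKM only through the shSCR libraries, so that their lower values in shJARID2 follow in part from the filter, and none of these counts is read as a result about the members. At an unadjusted p below 0.05, 4 of the 27 passed. The 1 call over all libraries did not hold with any single library left out. With limma-voom on reads recovered from the FPKM steps, 6 were called lower and none higher, beside 13.7% lower and 5.65% higher of 4938 rows.

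NKX3-2, which acts in skeletal development, was at 1.02 and 0.837 FPKM in shJARID2 and 0.806 and 0.838 FPKM in shSCR. The groups overlapped, and the difference did not pass (log2 fold change 0.15, limma adjusted p = 0.59). After removal of the GC trend, the value of NKX3-2 passed the test (1.07, adjusted p = 0.035). Of all rows of this range, 5.02% were called after GC correction, 1.99% higher and 3.04% lower.

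Of the HOX genes, 8 had a mean of at least 0.1 FPKM, of which HOXB9 and HOXC6 passed through shSCR alone. In HOXB7 and HOXC8 the groups overlapped. HOXD1, the most 3' gene of its cluster, had 3 and 9 reads in shJARID2, against 25 and 28 in shSCR. Its log2 fold change was -1.59 (SE 0.46, limma adjusted p = 0.058). It passed with limma-voom (-1.91, adjusted p = 0.012), with a pseudocount of 1 (-0.58, adjusted p = 0.035) and without shJARID2 replicate 2 (-2.12, adjusted p = 0.044), and its GC-corrected value was -1.10 (adjusted p = 0.13). Other genes cover 58.1% of its exon bases, so reads may have been assigned to another gene.

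HOXB4 and HOXB3, neighbours that act in hindbrain and blood stem cells, were closer between groups. Exons of other genes cover 17.1% of the exon bases of HOXB4 and 13.2% of those of HOXB3. The overlapping genes include each other, on the same strand, so reads may have been shared. HOXB4 was at 0.452 and 0.499 FPKM in shJARID2, against 0.618 and 0.543 FPKM in shSCR. HOXB3 was at 0.414 and 0.335 FPKM in shJARID2, against 0.640 and 0.489 FPKM in shSCR. Neither pair of groups overlapped, but the log2 fold changes of -0.24 and -0.48 did not pass (limma adjusted p = 0.48 for HOXB4 and 0.27 for HOXB3), and both turned positive after GC correction (0.11 and 0.31). HOXB9 and HOXC6, genes of trunk patterning, were singled out after their values were seen. HOXB9 had 5 and 0 reads in shJARID2 and 32 and 15 in shSCR (log2 fold change -2.02, limma adjusted p = 0.082). HOXC6 had 1 and 4 reads in shJARID2 and 13 and 13 in shSCR (-1.13, limma adjusted p = 0.14). Both were called lower with limma-voom (adjusted p = 0.0090 and 0.029), as were MEIS3 and LHX9.

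Other low members with the highest means did not pass. LHX6, a regulator of cortical interneurons, was at 1.06 and 0.774 FPKM in shJARID2 and 1.10 and 0.924 FPKM in shSCR. MEIS1, a TALE partner of HOX proteins, was at 0.833 and 0.857 FPKM in shJARID2, against 0.991 and 0.881 FPKM in shSCR. NKX6-1, of beta cells and motor neurons, was at 0.50 and 0.481 FPKM in shJARID2 and 0.836 and 0.460 FPKM in shSCR. The groups overlapped in LHX6 and NKX6-1, and none of LHX6, MEIS1 and NKX6-1 passed the test (limma adjusted p from 0.54 to 0.68). The remaining 11 low members averaged under 0.1 FPKM and were not tested. Their groups are not compared by counts, because no share over all rows below 0.1 FPKM was taken. OTX2, a forebrain gene named after its values were seen, had 2 and 10 reads in shJARID2 and 0 in each shSCR library. DLX1 and HOXA13, picked in the same way, went in the other direction. DLX1 had 0 and 1 reads in shJARID2 and 11 and 9 in shSCR, and HOXA13 3 and 1 against 12 and 11.

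**Figure D2:**
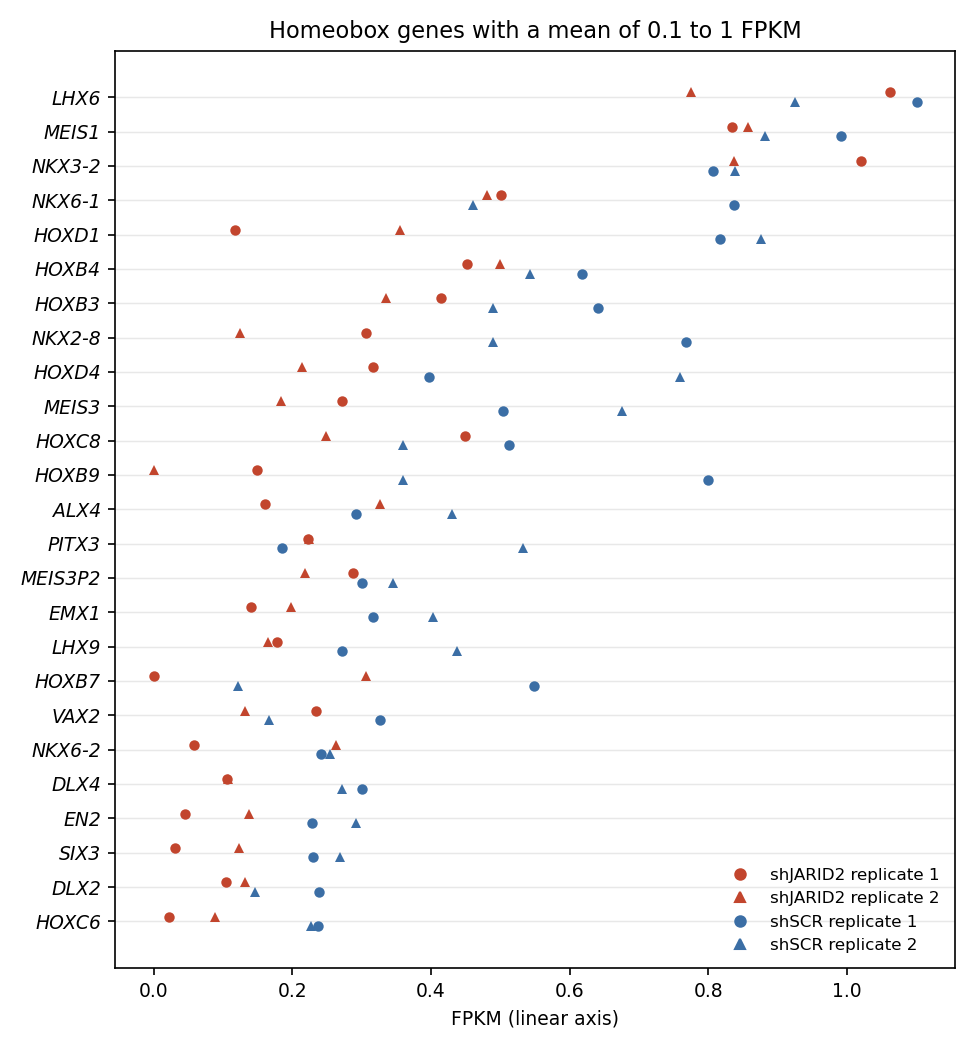
FPKM (linear axis) of 25 of the 27 homeobox genes with a mean of 0.1 to 1 FPKM, with 1 point per library and shJARID2 drawn above shSCR in each row. The groups overlap in 9 of the 25 genes drawn, and HOXD1 lies at 0.117 and 0.356 FPKM in shJARID2 and at 0.817 and 0.876 FPKM in shSCR.

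Among the 16 expressed members, more fell than rose. They were tested with limma on log2(FPKM + 1) over the 12455 rows with a mean of at least 1 FPKM, and 9 (56.2%) fell, 2 (12.5%) rose and 5 did not pass. Of all rows tested, 31.6% were called lower and 28.0% higher (59.7% in all). The groups did not overlap in any of the 16, with shJARID2 lower in 13 and higher in 3, beside 43.1% and 39.8% of all rows. The median log2 fold change was -0.57 for the members and -0.02 for all rows. With a library left out, the median of the members ran from -0.59 to -0.54, and the calls of some genes ended, as given below.

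Fold changes in these libraries follow the GC content of transcripts, and homeobox transcripts are rich in GC. The median transcript GC content was 58.9% for the 16 expressed members, against 48.2% for the 12039 rows of the fit with a value. Across the 16 members Spearman's rho between GC content and log2 fold change was -0.71, and across the 12039 rows -0.67. These points share the same 4 libraries. When a loess trend on GC content was removed from each library, 4 of the 16 members were higher (25.0%) and 4 lower (25.0%), beside 22.7% and 21.4% of all rows (44.2% in all), and the median of the members was -0.08. Both values are given for each gene below, and how far GC content accounts for a change was not tested.

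**Figure D3:**
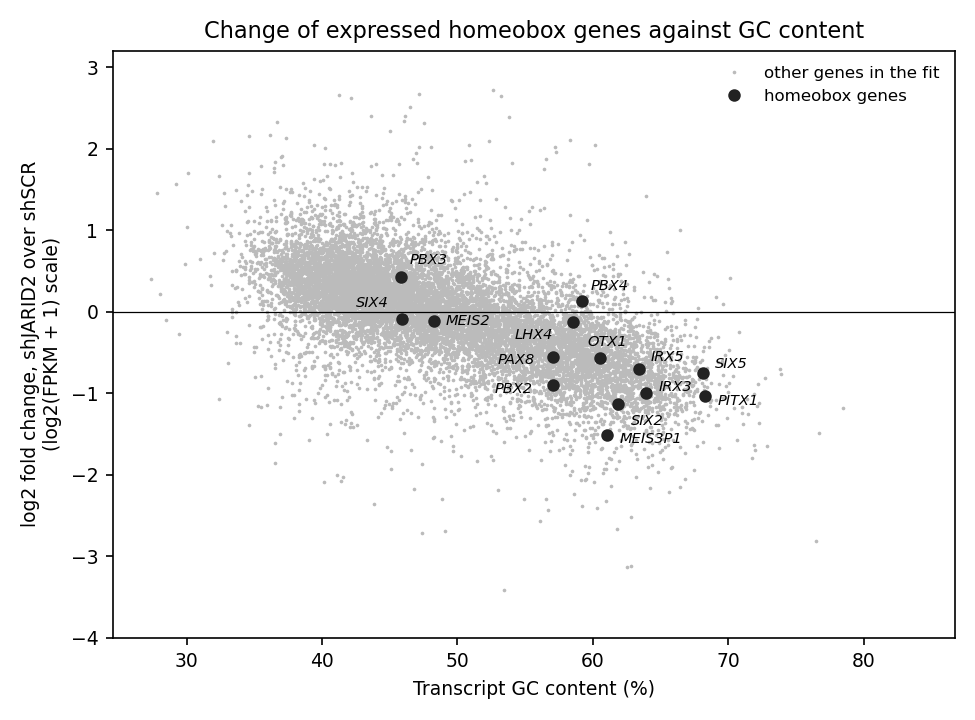
Log2 fold change of shJARID2 over shSCR (log2(FPKM + 1) scale) against transcript GC content in percent, with 1 point per gene, 14 of the 16 expressed homeobox genes in black and other genes in grey. PBX3 lies above 0 at 45.9% GC, and PITX1 and SIX5 lie below 0 at 68.3% and 68.1% GC.

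Promoters of 4 of these genes are shown to set their CpG density beside their change: PBX3 and PBX2, which moved in opposite directions, SIX4 as the highest homeobox gene and PITX1 as the highest of those that fell. Each is the 250 bases before the RefSeq transcription start on GRCh38.p14, written 5′ to 3′ on the gene's strand, with each CpG dinucleotide in capitals.
PBX3, chr9:125747933-125748182, + strand: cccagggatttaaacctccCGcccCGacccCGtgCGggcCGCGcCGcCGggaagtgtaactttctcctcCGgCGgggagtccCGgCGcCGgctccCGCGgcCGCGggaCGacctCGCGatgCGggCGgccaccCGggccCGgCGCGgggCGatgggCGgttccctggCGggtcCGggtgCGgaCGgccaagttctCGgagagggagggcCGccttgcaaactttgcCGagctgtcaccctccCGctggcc
PBX2, chr6:32190203-32190452, - strand: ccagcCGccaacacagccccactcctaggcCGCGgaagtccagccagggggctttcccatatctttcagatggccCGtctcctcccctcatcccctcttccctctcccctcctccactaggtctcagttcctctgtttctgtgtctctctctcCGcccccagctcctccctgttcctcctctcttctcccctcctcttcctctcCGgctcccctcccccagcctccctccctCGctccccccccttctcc
SIX4, chr14:60724352-60724601, - strand: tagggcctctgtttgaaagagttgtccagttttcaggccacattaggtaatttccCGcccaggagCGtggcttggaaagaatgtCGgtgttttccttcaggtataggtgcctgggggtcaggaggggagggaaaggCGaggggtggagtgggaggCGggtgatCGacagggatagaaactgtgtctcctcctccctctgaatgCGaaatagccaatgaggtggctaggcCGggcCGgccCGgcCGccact
PITX1, chr5:135034229-135034478, - strand: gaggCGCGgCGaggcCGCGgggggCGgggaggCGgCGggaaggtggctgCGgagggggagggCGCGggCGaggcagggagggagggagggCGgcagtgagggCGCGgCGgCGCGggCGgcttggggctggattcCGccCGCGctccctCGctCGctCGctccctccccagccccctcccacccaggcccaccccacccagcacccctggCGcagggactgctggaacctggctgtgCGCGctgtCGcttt
PBX3 has 36 CpG in these 250 bases and PITX1 29, whereas PBX2 has 7 and SIX4 11. In GENCODE release 29 the PBX3 and PITX1 windows lie inside the annotated gene, and those of PBX2 and SIX4 upstream of it. By that annotation the counts come from unlike positions. PBX3, which was higher in shJARID2, and PITX1, which was lower, both have CpG-dense promoters. RefSeq promoter windows (250 bases before to 50 after the start) were matched for 61 of the 103 members. Of these, 82.0% had a GC content of at least 50% and an observed to expected ratio of CG of at least 0.6, against 46.9% of all 27305 promoters. Among rows of the expressed fit the share was 83.0%, and among the 31 silent members matched it was 83.9%.

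The PBX genes, whose products pair with HOX proteins on DNA, moved apart. PBX3, a partner of HOXA9 in leukaemia, was at 11 and 9.85 FPKM in shJARID2, against 7.39 and 7.54 FPKM in shSCR, and rose (log2 fold change 0.43, SE 0.073, limma adjusted p = 0.0089, GC-corrected 0.26). PBX2 was at 9.26 and 9.60 FPKM in shJARID2, against 17.8 and 19.0 FPKM in shSCR. It fell by 0.90 on the log2 scale (SE 0.058, limma adjusted p = 0.0014, GC-corrected -0.45). Another gene overlaps 15.1% of its exon bases. PBX4 was at 3.90 and 3.85 FPKM in shJARID2 and 3.33 and 3.56 FPKM in shSCR, which did not pass (0.13, limma adjusted p = 0.21) but did after GC correction (0.69, adjusted p = 0.0044). PBX2 and PBX3 were called in the same direction with and without the GC correction. Without shSCR replicate 1 or 2, PBX3 no longer passed (0.42 and 0.44).

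Of the remaining TALE genes, both expressed Iroquois genes fell. IRX3 and IRX5 act together in limb and heart patterning and lie 644.1 kb apart on chromosome 16. IRX3 was at 0.531 and 0.483 FPKM in shJARID2, against 1.84 and 2.19 FPKM in shSCR. IRX5 was at 2.25 and 2.53 FPKM in shJARID2, against 4.67 and 4.34 FPKM in shSCR. Their log2 fold changes were -0.997 (SE 0.13) and -0.70 (SE 0.092), with limma adjusted p = 0.0046 and 0.0044. GC-corrected values of -0.22 for IRX3 and 0.058 for IRX5 did not pass (adjusted p = 0.23 and 0.63). Their neighbour IRX6, 389.3 kb from IRX5, was silent. MEIS2, a HOX and PBX partner, did not pass, at 2.43 and 2.39 FPKM in shJARID2, against 2.69 and 2.68 FPKM in shSCR (-0.11, limma adjusted p = 0.32, GC-corrected -0.14). The row of the pseudogene MEIS3P1 was at 0.645 and 1.39 FPKM in shJARID2, against 4.51 and 4.77 FPKM in shSCR (-1.51, SE 0.20, limma adjusted p = 0.0047, GC-corrected -0.86). MEIS3 itself, a gene picked with its values in view, stood at 0.271 and 0.183 FPKM in shJARID2, against 0.504 and 0.675 FPKM in shSCR, and since reads of near-identical copies may have been shared, the call of MEIS3P1 is uncertain.

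**Figure D4:**
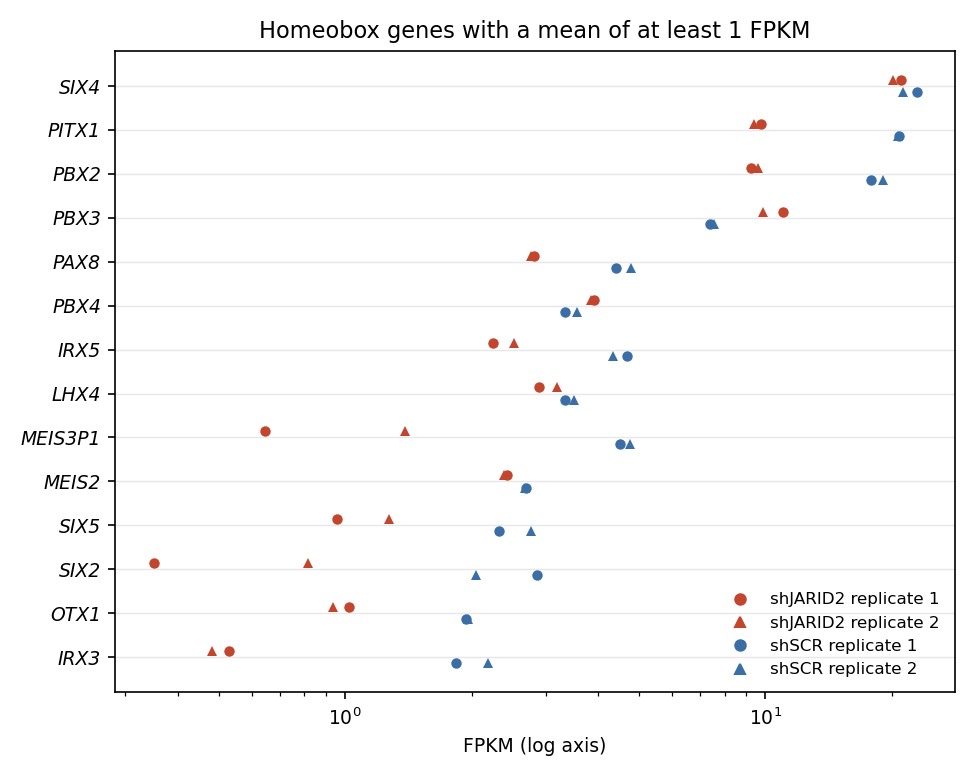
FPKM (log axis) of 14 of the 16 homeobox genes with a mean of at least 1 FPKM, with 1 point per library and shJARID2 drawn above shSCR in each row. Of the genes drawn, PBX3 and PBX4 are those whose shJARID2 points lie to the right of their shSCR points.

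In the sine oculis family, whose products work with EYA coactivators in muscle, kidney and sensory organs, SIX2 and SIX5 fell and SIX4 did not pass. SIX4, the highest homeobox gene, was at 21.0 and 20.2 FPKM in shJARID2, against 22.9 and 21.2 FPKM in shSCR (-0.094, SE 0.059, limma adjusted p = 0.23). SIX4 was called lower after GC correction (-0.26, adjusted p = 0.018). SIX6 was silent. SIX2, which maintains kidney progenitors, had 10 and 23 reads in shJARID2, against 98 and 73 in shSCR. Its FPKM of 0.350 and 0.815 in shJARID2, against 2.87 and 2.05 in shSCR, fell by 1.13 on the log2 scale (SE 0.22, limma adjusted p = 0.012), but not after GC correction (-0.44, adjusted p = 0.15) or without shSCR replicate 1 (-0.96). Its neighbour SIX3, 59.1 kb away and named after its values were seen, was low, with 1 and 4 reads in shJARID2 and 9 and 11 in shSCR (limma adjusted p = 0.18). SIX5 was at 0.955 and 1.27 FPKM in shJARID2, against 2.32 and 2.76 FPKM in shSCR, and fell (-0.75, SE 0.14, limma adjusted p = 0.012). Its value was 0.23 after GC correction and -0.66 without shSCR replicate 2, neither of which passed, and 59.3% of its exon bases are shared with other genes.

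The expressed paired-like genes PITX1 and OTX1 and the PAX gene PAX8 fell as measured. PITX1, a hindlimb selector, was at 9.76 and 9.37 FPKM in shJARID2, against 20.8 and 20.6 FPKM in shSCR. The ratio of the means was 0.462, with replicates close together (-1.04, SE 0.050, limma adjusted p = 0.0014), yet the GC-corrected value was -0.055 (adjusted p = 0.60). OTX1, of the forebrain, was at 1.02 and 0.937 FPKM in shJARID2, against 1.94 and 1.96 FPKM in shSCR (-0.57, SE 0.11, limma adjusted p = 0.013). It did not pass after GC correction (0.055) or without shSCR replicate 1 (-0.58) or 2 (-0.57). PAX8, of thyroid and kidney, was at 2.82 and 2.77 FPKM in shJARID2, against 4.41 and 4.78 FPKM in shSCR (-0.56, SE 0.082, limma adjusted p = 0.0058). Its GC-corrected value was -0.11 (adjusted p = 0.30), and without shSCR replicate 2 it missed the threshold (-0.51, adjusted p = 0.052). LHX4, a LIM gene of the pituitary, was at 2.89 and 3.196 FPKM in shJARID2 and 3.34 and 3.51 FPKM in shSCR (-0.13, limma adjusted p = 0.26), and was called higher after GC correction (0.40, adjusted p = 0.016), with 30.8% of its exon bases shared with ACBD6.

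**Figure D5:**
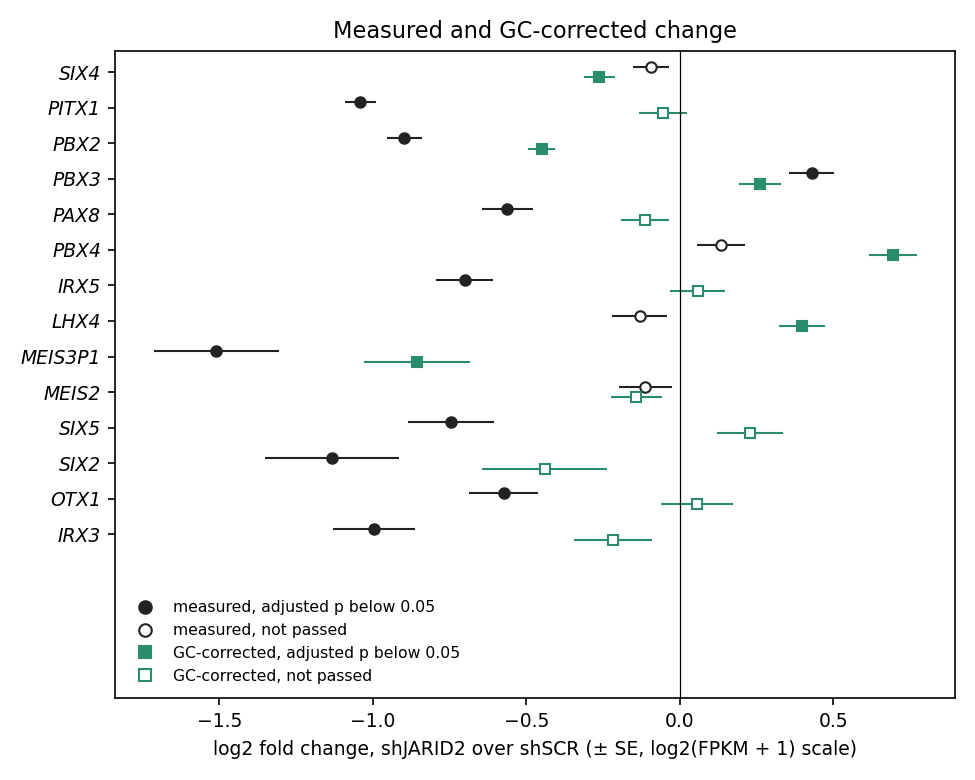
Log2 fold change of shJARID2 over shSCR with its SE for 14 of the 16 expressed homeobox genes, measured (circles) and GC-corrected (squares), filled where the adjusted p is below 0.05. PBX3, PBX2 and MEIS3P1 are filled in both, while PITX1 is at -1.04 measured and -0.055 GC-corrected.

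Regulators and partners of homeobox genes were counted in the same fit, whose background is 31.6% lower and 28.0% higher. After GC correction the background is 21.4% lower and 22.7% higher. Among 13 PRC2 subunits tested, 7 rose and 3 fell, JARID2 included (4 and 2 after GC correction), and among 21 PRC1 subunits 7 rose and 10 fell (4 and 4). In the MLL and trithorax group, which counteracts Polycomb at HOX genes, 6 of 23 rose and 13 fell (6 and 10 after GC correction). KMT2A, the founding MLL methyltransferase of HOX genes, was at 22.4 and 23.5 FPKM in shJARID2, against 29.1 and 28.8 FPKM in shSCR (-0.32, limma adjusted p = 0.0057, GC-corrected -0.41). KMT2B (-1.21, GC-corrected -0.50), KMT2D (-1.06, GC-corrected -0.53), SETD1B (-1.09, GC-corrected -0.29) and the elongation cofactor MLLT1 (-1.46, GC-corrected -0.67) also fell. MEN1, the menin scaffold, fell as measured (-0.59, limma adjusted p = 0.0026) but was at 0.078 after GC correction. The exon bases of KMT2A are shared with other genes over 18.9% of their length.

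Of 4 other TALE genes tested, only TGIF2, a repressor in TGF-beta signalling, was called, at 1.43 and 1.24 FPKM in shJARID2, against 3.51 and 4.33 FPKM in shSCR (-1.07, limma adjusted p = 0.0034, GC-corrected -0.92). Of 80 genes of other homeobox classes found, 32 were silent and 23 were tested, with 6 higher and 8 lower (3 and 8 after GC correction). CUX1 (-0.73, GC-corrected -0.35) and ZHX2 (-0.75, GC-corrected -0.71) fell, as did CERS2, a ceramide synthase (-0.51, GC-corrected -0.35, with 37.2% of exon bases shared). POU2F2 fell as measured (-0.63) but not after GC correction (-0.064) or without shSCR replicate 2 (-0.61). Of the 5 EYA and DACH genes found, whose products are cofactors of SIX2 and its relatives, 3 were tested and none passed (EYA4 0.32, limma adjusted p = 0.061). Among 4 tested LIM cofactors, LDB1, the dimerisation hub of LIM homeodomain proteins, fell by 0.89 on the log2 scale, with 16.5 and 17.9 FPKM in shJARID2, against 33.65 and 31.95 FPKM in shSCR (GC-corrected -0.29). SSBP3, which stabilises LDB1, fell too (-0.55, GC-corrected -0.24). Of the noncoding RNAs of the HOX clusters, HAGLR of the HOXD cluster was the one found under its symbol, at 0.0604 and 0.107 FPKM in shJARID2 and 0.0252 and 0.0363 FPKM in shSCR.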

How the data were processed

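RNA sequencing values of 4 libraries (2 shJARID2, 2 shSCR) were used, 1 file per library. The deposited unit is FPKM, per the file headers, made by the authors. Per the submitters' processing notes, the tools were featureCounts, HISAT2, SAMtools and Trimmomatic; their versions, the build, annotation, strand setting and treatment of multiply matching reads are not given. Of 85553 rows, 25133 have a gene symbol. The members and lists were chosen with earlier results of these data known.

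Exon lengths, transcript GC content, exon overlaps and coordinates came from GENCODE release 29 (GRCh38), matched by symbol for 24205 rows and 102 members (all but HOXC5). Reads were recovered as FPKM times exon length times depth, with the depth that put most values on whole numbers (96.1% to 96.5% of values up to 20 reads within 0.05). Intervals and floors cover counting error only.

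Limma 3.58.1 in R 4.3.3 fitted group alone, with a trended prior. The fit for expressed genes used log2(FPKM + 1) and a mean of at least 1 FPKM, and that for low genes log2(FPKM + 0.1) and at least 0.1 FPKM. The pseudocount understates the changes of low genes. Benjamini-Hochberg adjustment ran over all rows of a fit, with calls below 0.05. Prior degrees of freedom were 2.36 and 2.02, beside 2 residual. GC correction subtracted a loess smooth (span 0.3, degree 2) of each library's deviations on GC content. The steps were tested on simulated data. Replicates differed by more than sampling noise (chi-square per degree of freedom 3.43 in shJARID2 and 2.94 in shSCR).

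Named genes were JARID2, all expressed members, low members that were called, the 3 HOX genes and 6 other low members with the highest mean, up to 4 called genes per list, and EZH2, EED, SUZ12, KMT2A and MEN1; any other gene was picked with its values in view. Some genes this rule names are not reported here, one by one or in figures; they stay in the counts. Alternatives were other scalings, pseudocounts and filters, GC correction, limma-voom on recovered reads, the replicate number as a block and each library left out.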

Additional observations from a re-analysis of the deposited data

How the results depend on the processing

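JARID2 kept its fall in every alternative (-1.28 to -1.27 with a library left out). GC correction moved most: 4 expressed members higher and 4 lower (4 lower also with the replicate block), 1 low member higher, 17 regulators and partners higher with and without the block, and medians of -0.084 (expressed) and -0.1 (low), also with the block. Limma-voom gave 6 low members lower and medians of -0.79 and -0.86. Pseudocounts of 0.5 and 0.1 gave medians of -0.68 and -0.79 for expressed members, and 0.01 and 1 gave -0.92 and -0.19 for low members, of which 2 were called lower with 1. With a library left out, 0 to 2 expressed members were higher and 6 to 9 lower, 0 low members higher and 0 to 4 lower, 17 to 21 regulators and partners higher and 24 to 36 lower, and medians ran from -0.59 to -0.54 (expressed) and -0.69 to -0.59 (low); 50 to 52 members were silent, 35 to 37 low and 15 to 17 expressed.

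Signs turned with GC correction, to the same value with the replicate block, for IRX5 (0.058), LHX4 (0.4), SIX5 (0.23), OTX1 (0.055), HOXB4 (0.11), HOXB3 (0.31), LHX6 (0.36), NKX6-1 (0.21), EZH2 (-0.057) and MEN1 (0.078). With a library left out, LHX6 ran from -0.34 to 0.067 (without shJARID2 replicate 2) and NKX6-1 from -0.66 to 0.076 (without shSCR replicate 1). EZH2 (0.14 as measured, adjusted p = 0.054, limma) passed under both scalings (0.17 and 0.16), limma-voom (0.17) and the replicate block (0.14). EED (0.52), SUZ12 (0.61), AEBP2 (0.85), MTF2 (0.72) and BMI1 (1.19) rose and EPOP (-0.90), CBX2 (-1.37), CBX6 (-1.15) and PCGF2 (-0.92) fell as measured; the calls of EED, EPOP and PCGF2 ended with GC correction, and that of PCGF2 without shSCR replicate 2 (-0.90). The cause of these changes was not tested. Exons of other genes cover 23.35% of the exon bases of BMI1 and 45.68% of those of PCGF2, so their values are uncertain.

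The replicate number as a block left the expressed calls at 2 higher and 9 lower and gave 2 low members lower. Deviations of same-numbered libraries correlated at 0.03 across genes, which shows no large shared replicate effect. The value cannot tell whether same-numbered libraries were prepared together, and the labels do not say. Of the 38 low members, 31 had fewer than 50 reads in every library; how far depth, rather than the spread between replicates or their number, limits their calls was not tested.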
